A study of Saccharomyces cerevisiae with 44 samples.

Results

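The comparison covers 4 of the 44 samples of the series, 2 libraries of wild-type yeast taken 2 h before the diauxic shift and 2 taken 2 h after it. They were chosen by their labels, as wild type, steady-state RNA and these time points. The diauxic shift is the point at which a batch culture of Saccharomyces cerevisiae has used up its glucose. All 4 samples are of the laboratory strain background W303, with no deletion and no drug, and all were collected on day 2. The titles carry the number 5781 for replicate 1 and 5782 for replicate 2 of each group. Each genotype of the series has its own pair of such numbers, and the labels do not say what they stand for. The earlier samples were taken at an optical density of 4 to 5, which the submitters used to judge the time left before exhaustion, and glucose itself was followed with test strips. The medium is not given in the labels. Other samples of the series measured RNA in G1 and quiescent cells, at 24 and 48 h after the shift, and in cells lacking the nuclear exosome subunit Rrp6 or depleted of the termination factor Nab3. Replicates are called biological in the design text. The p-values here measure only the spread between replicate libraries, estimated over 20 libraries of the series and not these 4 alone.

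While glucose lasts, budding yeast ferments it to ethanol and keeps the genes for other carbon sources repressed. When glucose runs out, the Snf1 kinase and the activators Cat8, Adr1 and Hap4 turn on genes for respiration, for the use of ethanol and acetate, and for making sugars from them. Ribosome synthesis, which takes much of a growing cell's transcription, is cut back at the same time through the Ras and TOR pathways.

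The libraries were made from total RNA after depletion of ribosomal RNA and held 5721528 to 8006231 reads on S. cerevisiae mRNAs each. Levels are given as CPM, read counts scaled per 1000000 of the library's mRNA total after TMM scaling, in the order replicate 1, replicate 2. Between the replicates of a group the log2 levels of 6146 mRNAs correlated at 0.995 before the shift and 0.994 after it, as a description across genes. Genes of mating type a were present and those of type alpha were not. STE2, the receptor for alpha factor, was at 462 and 460 CPM before and 50.4 and 50.4 CPM after, while STE3, the alpha cell's receptor, did not pass 2.06 CPM in any of the 4 libraries. The model that gave the tests also held the other wild-type libraries and those of rrp6-deleted cells. The rrp6-deleted libraries labelled +2 h correlated more closely with wild type at 24 h (0.971) than with wild type at 2 h (0.929). Those labelled +24 h correlated more closely with wild type at 2 h (0.939) than at 24 h (0.904). Fitted with the 10 wild-type libraries alone, a choice made after seeing the data, the comparison called 4784 mRNAs in place of 4795.

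Within the 4 h between the samples most of the transcriptome changed. Of 6146 mRNAs tested, 2527 (41.1%) were higher and 2268 (36.9%) were lower after the shift, 78.0% in all, by edgeR's quasi-likelihood test at an adjusted p below 0.05. A change of at least 1 log2 unit was found upward in 1380 mRNAs (22.5%) and downward in 1224 (19.9%). Changes of at least 5 log2 units were far more often rises, 99 against 28. For 88.8% of the mRNAs the levels of the groups did not overlap, and these held 4793 of the 4795 mRNAs called. The quartiles of all mRNAs were -0.79 and 0.92 on the log2 scale, and the median was 0.06.

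These changes are relative to the total of S. cerevisiae mRNA. The mRNA table also has rows for Kluyveromyces lactis, a second budding yeast whose addition to the samples the labels do not describe. For each K. lactis read there were 13.9 and 13.6 S. cerevisiae mRNA reads before the shift (mean 13.8 ± 0.204, SD, n = 2) and 6.89 and 6.88 after it (mean 6.89 ± 0.0108, SD, n = 2). The ratio fell by 2.0-fold. The libraries of the groups did not overlap, and 2 against 2 cannot reach a lower p than the 0.333 of the exact two-sided permutation test. Scaled to K. lactis reads, all log2 changes shifted down by 0.94 at the median of the mRNAs, and 1030 were called higher and 3965 lower. Fewer cells in a sample and less mRNA per cell cannot be told apart in RNA from whole cultures.

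**Figure D1:**
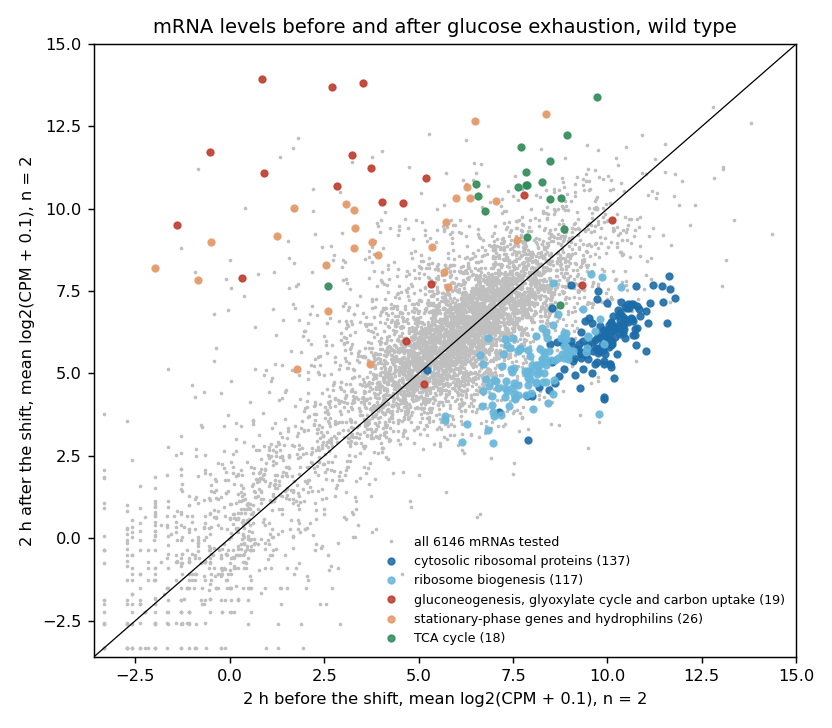
Mean log2(CPM + 0.1) of each of 6146 mRNAs 2 h before (horizontal) and 2 h after (vertical) the shift, n = 2 libraries a group, with 5 gene lists in colour and a line where both are equal. All ribosome biogenesis genes lie below the line, and 16 of the 19 genes of gluconeogenesis, the glyoxylate cycle and carbon uptake lie above it, on this scale and on the K. lactis scale alike.

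Among the largest rises were genes for making sugar from 2-carbon compounds. MLS1, malate synthase of the glyoxylate cycle (chromosome XIV, 406358 to 408022, sacCer3), was at 2.78 and 1.04 CPM before the shift and at 15620 and 15760 CPM after it. FBP1, the gluconeogenic fructose-1,6-bisphosphatase (chromosome XII, 873746 to 874792), went from 0.661 and 0.522 to 3333 and 3453 CPM. PCK1, phosphoenolpyruvate carboxykinase (chromosome XI, 631152 to 632801), went from 7.28 and 5.57 to 12770 and 13740 CPM. The 2 earlier libraries together held 27 reads of MLS1, 8 of FBP1 and 87 of PCK1. Their log2 fold changes were 12.91 ± 0.27, 12.41 ± 0.22 and 10.99 ± 0.19 (SE), with adjusted p between 5.24e-24 and 1.21e-21. ICL1, isocitrate lyase, the other enzyme particular to the glyoxylate cycle (chromosome V, 285241 to 286914), went from 11.5 and 11.5 to 14100 and 14910 CPM (10.30 ± 0.23). Per length, MLS1, ICL1 and PCK1 were at ranks 3, 5 and 7 among nuclear-encoded mRNAs after the shift, at 9384 and 9465, 8424 and 8908, and 7742 and 8327 RPKM. By the same measure the most abundant mRNA was CCW12, a cell wall protein, before the shift, at 21560 and 21090 RPKM, and HSP12, a membrane-stabilising stress protein, after it, at 21280 and 23890 RPKM. HSP12 had been at 1162 and 870 RPKM (log2 fold change 4.47). These genes were chosen for their abundance after values were seen. CSM4, a protein of meiotic chromosome movement, had no read in the earlier libraries and 12.7 and 14.2 CPM in the later ones, at least 59.7-fold higher against a floor of 3 counts over the group.

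Of the 19 genes of gluconeogenesis, the glyoxylate cycle and carbon uptake, 16 rose and 3 fell, with a median of 7.50 log2 units against 0.06 for all mRNAs. Together they took 0.212% and 0.208% of mRNA reads before the shift and 6.17% and 6.41% after it. The transporters rose with the enzymes. ADY2, an acetate permease, went from 0.132 and 0.522 to 714 and 747 CPM (11.14 ± 0.62). JEN1, the carrier of lactate and pyruvate, went from 6.48 and 7.66 to 1621 and 1680 CPM (7.88 ± 0.15). SFC1, which carries succinate and fumarate across the inner mitochondrial membrane, went from 1.98 and 1.57 to 2071 and 2236 CPM (10.20 ± 0.22). The cytosolic malate dehydrogenase MDH2 (8.41 ± 0.22), the cytosolic isocitrate dehydrogenase IDP2 (7.50 ± 0.12) and the peroxisomal citrate synthase CIT2 (5.70 ± 0.31) rose as well. The 3 that fell were MAE1, the mitochondrial malic enzyme (-1.67 ± 0.21), PYC2, a pyruvate carboxylase (-0.49 ± 0.09), and DAL7, a malate synthase of allantoin use (-0.48 ± 0.14). PYC1, the other pyruvate carboxylase, rose from 222 and 223 to 1404 and 1345 CPM (2.63 ± 0.16).

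Several of these levels did not last in the later wild-type libraries, which are described here without a test. MLS1 was at 3555 and 3276 CPM at 24 h and 202 and 231 CPM at 48 h, and FBP1 at 527 and 402 and then 37.9 and 32.0 CPM. PCK1 was at 5387 and 4248 and then 214 and 189 CPM. ADY2 was instead at its highest at 48 h, with 6718 and 6098 CPM. SPG4, a gene named for survival in stationary phase, went from 0.529 and 0.697 CPM before the shift to 478 and 534 CPM at 2 h (9.66 ± 0.30) and stood at 6987 and 5434 CPM at 48 h. RGI2, a gene induced during respiratory growth, had 2 reads in the 2 earlier libraries and 3333 in the 2 later ones, a ratio of counts of 1937 (95% exact interval 536 to 16000, counting error only). It was at 289 and 293 CPM at 2 h and 3285 and 3097 CPM at 48 h.

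**Figure D2:**
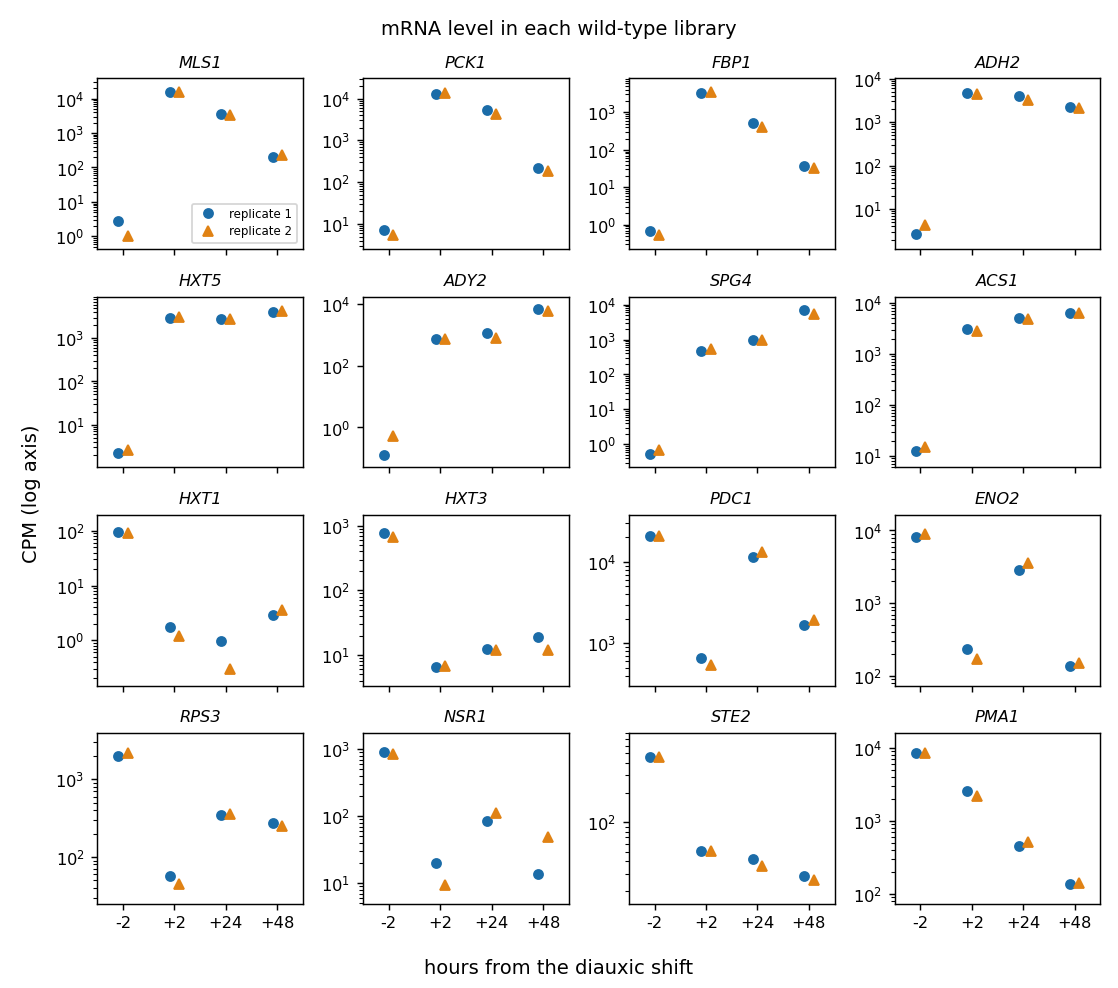
CPM (log axis) of 16 mRNAs in each wild-type library at 2 h before and 2, 24 and 48 h after the shift, with circles for replicate 1 and triangles for replicate 2. MLS1, PCK1 and FBP1 stood highest at 2 h, ADY2 and SPG4 at 48 h, and PDC1, ENO2 and RPS3 were lower at 2 h than at 24 h.

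Hexose transporters moved in both directions. HXT1 to HXT4 fell, and HXT5, a transporter of moderate affinity known from slow growth and stationary phase, rose from 2.25 and 2.61 to 3019 and 3082 CPM (10.29 ± 0.17). HXT3, a low-affinity carrier (chromosome IV, 1162957 to 1164660), was at 768 and 676 CPM before and 6.41 and 6.86 CPM after, the largest fall under the naming rule (-6.76 ± 0.17). HXT1, the other low-affinity carrier, went from 97.5 and 89.8 to 1.78 and 1.20 CPM (-5.96 ± 0.21). HXT2 (-5.24 ± 0.23) and HXT4 (-4.58 ± 0.29), both induced by low glucose, fell too. Of 19 transporters and sensors tested, 10 were higher (52.6%, against 41.1% of all mRNAs) and 6 lower (31.6%, against 36.9%). Their median of 0.75 turned to -0.14 under K. lactis scaling. SNF3, the sensor of low glucose, rose from 27.2 and 31.2 to 284 and 276 CPM (3.27 ± 0.10). HXT6 rose from 4.63 and 6.09 to 444 and 463 CPM while HXT7, its neighbour on chromosome IV, went from 205 and 226 to 123 and 135 CPM (-0.74 ± 0.12). These genes are nearly identical in sequence, and reads that matched more than 1 place were not counted, so the values of this pair are uncertain. 

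Glycolytic genes mostly fell, 15 of 22, and 7 rose (median -1.08). ENO2, the main glycolytic enolase (chromosome VIII, 451327 to 452640), went from 8079 and 8832 to 237 and 171 CPM (-5.37 ± 0.17). CDC19, the main pyruvate kinase, went from 10360 and 10650 to 888 and 737 CPM (-3.69 ± 0.16). PDC1, the main pyruvate decarboxylase and the gate to fermentation, went from 20980 and 20640 to 652 and 545 CPM (-5.12 ± 0.18). Each had been among the most abundant mRNAs of the culture. The 22 genes together went from 5.18% and 5.50% to 1.90% and 1.77% of mRNA reads. The reversible enzymes covered a wide range, with PGK1 at -0.96 ± 0.14, PGI1 at -1.04 ± 0.13, TPI1 at -1.54 ± 0.13, FBA1 at -1.90 ± 0.13, GPM1 at -2.26 ± 0.13 and TDH2 at -3.58 ± 0.14. The phosphofructokinase subunits PFK1 and PFK2 fell by 0.94 and 1.12 on the log2 scale. The 7 that rose were GLK1 (3.44 ± 0.18), GPM2, PFK26, TDH1, PYK2, HXK1 and EMI2 (0.33 ± 0.12), and the last of these turned to a fall under K. lactis scaling. PFK26 and PFK27 both encode enzymes that make the glycolytic activator fructose-2,6-bisphosphate. PFK26 rose (2.33 ± 0.10) and PFK27 fell (-3.84 ± 0.14).

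Of the enzymes with a form for growth on sugar and another for other carbon sources, some exchanged their main form within 4 h and others did not. ADH2, the alcohol dehydrogenase that oxidises ethanol (chromosome XIII, 873291 to 874337), went from 2.65 and 4.35 to 4646 and 4461 CPM (10.38 ± 0.36), and ADH1, the fermentative form, from 4532 and 4858 to 724 and 720 CPM (-2.70 ± 0.12). Per length, ADH2 made up 0.0583% and 0.0895% of the reads of the pair before the shift and 86.5% and 86.1% after it. The hexokinase HXK1 went from 25.3% and 26.0% of the reads of HXK1 and HXK2 to 85.3% and 86.3%. ENO1 went from 16.1% and 14.3% of the enolase pair to 79.0% and 81.8%, although its own level fell (-0.87 ± 0.13), since ENO2 fell by more. The acetyl-CoA synthetase ACS1 went from 1.66% and 1.79% of the reads of ACS1 and ACS2 to 66.2% and 63.8%. Both of that pair rose, by 7.80 ± 0.31 and 1.06 ± 0.11. In the mitochondrial pyruvate carrier, MPC3, the subunit used in respiring cells, went from 1.12% and 0.447% of the reads of MPC3 and MPC2 to 59.4% and 55.1%. COX5A was the main form of cytochrome c oxidase subunit 5 on both sides of the shift, at 85.7% and 84.8% before and 98.9% and 98.8% after. TDH1 went from 1.67% and 1.15% of the reads of TDH1 and TDH3 to 11.3% and 11.4%, and the aldehyde dehydrogenase ALD4 from 28.5% and 23.5% of those of ALD4 and ALD6 to 35.7% and 34.6%. CYC1, the main cytochrome c, moved the other way, from 95.7% and 92.6% of the reads of CYC1 and CYC7 to 91.3% and 90.3%. PDC6 and PYK2 rose (3.83 ± 0.34 and 1.46 ± 0.09) but stayed the lesser forms at 2 h, at 4.69% and 4.63% of PDC6 and PDC1, and 14.3% and 16.4% of PYK2 and CDC19. ADH1 and ADH2, ENO1 and ENO2, and TDH1 and TDH3 are close paralogs, and reads shared between the members of a pair were not counted.

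**Figure D3:**
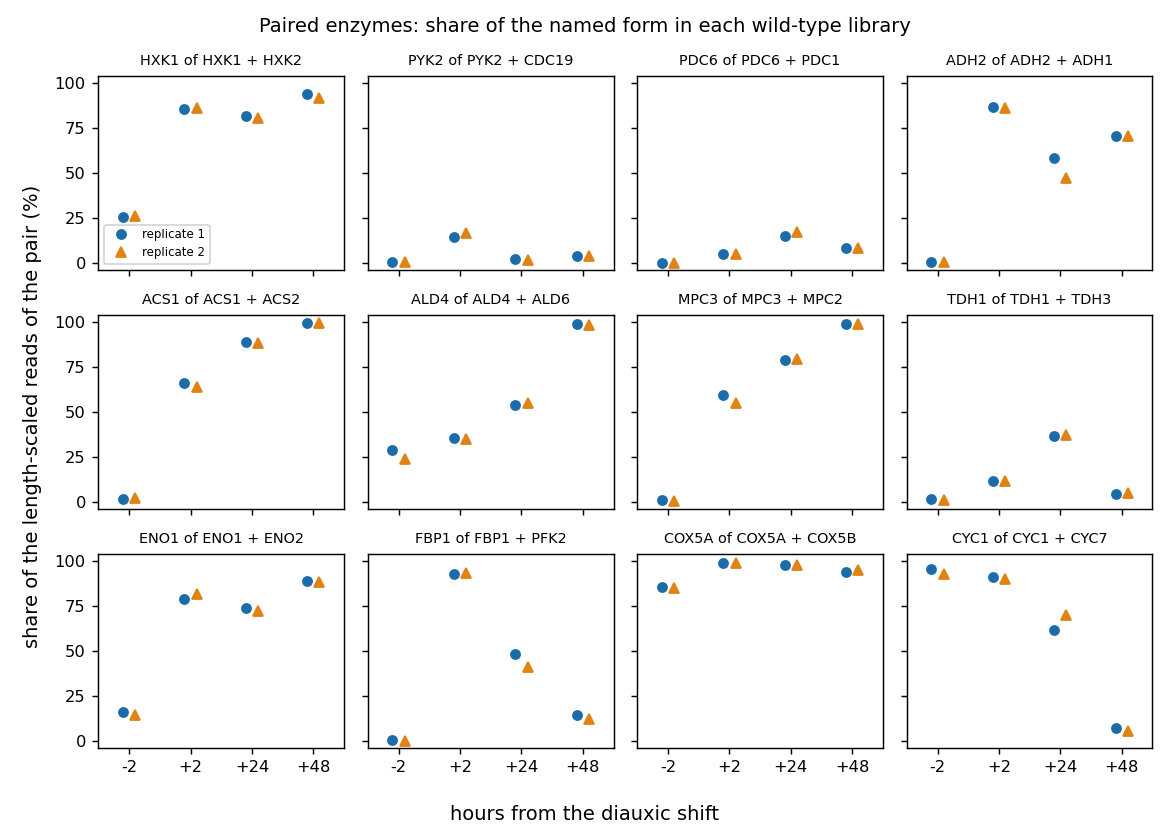
Share (percent) of the first-named gene in the length-scaled reads of each of 12 gene pairs, in each wild-type library at 2 h before and 2, 24 and 48 h after the shift, with circles for replicate 1 and triangles for replicate 2. ADH2 stood at 86.5% and 86.1% at 2 h, and FBP1 passed from 0.125% and 0.0973% of the reads of FBP1 and PFK2 to 93.0% and 93.6%.

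Genes of respiration rose together. Of 18 TCA cycle genes 17 rose and 1 fell (median 2.99), and of 38 genes of the respiratory chain and ATP synthase 37 rose and 1 fell (median 1.60). ACO1, the mitochondrial aconitase, went from 820 and 874 to 11020 and 10460 CPM (3.67 ± 0.11), and CIT1, the mitochondrial citrate synthase, from 191 and 227 to 3730 and 3777 CPM (4.17 ± 0.12). The respiratory chain gene that fell was COX5B, the oxidase subunit of low oxygen (-2.01 ± 0.13). Apart from COX5B and STF1, a factor that acts on the ATP synthase inhibitor (3.24), the genes of complexes III, IV and the ATP synthase and the cytochromes c lay between 1.05 ± 0.08 for ATP20 and 2.06 ± 0.08 for RIP1. The NADH dehydrogenases spread more widely. NDE2, an external enzyme, rose from 4.76 and 4.18 to 1562 and 1558 CPM (8.43 ± 0.16), NDI1, the internal enzyme, by 3.18 ± 0.11, and NDE1, the other external enzyme, by 0.79 ± 0.09, which became a fall on the K. lactis scale. Of the 11 mRNAs of the mitochondrial chromosome that could be tested, of 28 in the table, 9 rose (median 1.05). Under K. lactis scaling 2 were higher and 2 lower, with a median of 0.10. COX2, an oxidase subunit made in the mitochondrion, went from 635 and 664 to 1858 and 1945 CPM (1.55 ± 0.13). Mitochondrial ribosomal proteins hardly moved as a list, with a median of 0.05, which was -0.90 under K. lactis scaling. Of 67 genes 23 were higher (34.3%, against 41.1% of all mRNAs) and 10 lower (14.9%, against 36.9%).

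Of 40 genes of fatty acid beta-oxidation and the peroxisome, 37 rose and 3 fell (median 1.75). Under K. lactis scaling 27 were higher and 5 lower. The carnitine shuttle, which brings acetyl units to the mitochondrion, led the list. CRC1, its mitochondrial carrier, went from 1.06 and 1.39 to 954 and 1131 CPM (9.73 ± 0.58), and CAT2, carnitine acetyltransferase, from 8.73 and 9.75 to 2608 and 2828 CPM (8.21 ± 0.24). FAT1, a fatty acid transporter, and FAA1, an acyl-CoA synthetase, fell by 0.68 and 0.32 on the log2 scale.

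Regulators of carbon use moved less as a list, 20 of 34 higher (58.8%) and 8 lower (23.5%), against 41.1% and 36.9% of all mRNAs. Their median of 0.70 turned to -0.25 under K. lactis scaling. Rises and falls were found among the activators. CAT8, which drives gluconeogenic genes, went from 18.6 and 25.9 to 644 and 653 CPM (4.88 ± 0.14), ADR1, the activator of ADH2 and of peroxisomal genes, from 55.6 and 61.3 to 806 and 804 CPM (3.79 ± 0.12), and HAP4, the activating subunit of the Hap complex, from 156 and 137 to 1075 and 1100 CPM (2.89 ± 0.12). ERT1, which acts on gluconeogenic genes (-0.47), and TYE7, an activator of glycolytic genes (-0.94), fell. SIP4, an activator bound to Snf1, rose from 2.91 and 3.31 to 920 and 1068 CPM (8.32 ± 0.22), and SIP2, a subunit of the Snf1 kinase itself, by 4.03 ± 0.09. REG2, a partner of the Glc7 phosphatase, rose from 2.78 and 2.79 to 484 and 547 CPM (7.52 ± 0.15). Of the glucose repressors, MIG2 fell from 57.01 and 48.1 to 2.32 and 2.74 CPM (-4.37 ± 0.21). MIG1 was at 106 and 110 CPM before and 123 and 114 CPM after, and its change of 0.14 ± 0.09 did not pass the test (adjusted p = 0.151). It was called lower under K. lactis scaling (-0.81).

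Most mRNAs for reserve carbohydrate metabolism and stress proteins rose. All 7 trehalose genes rose (median 2.00), among them TPS1, trehalose phosphate synthase (2.00 ± 0.11), and ATH1, the acid trehalase that breaks trehalose down (4.23 ± 0.10). TPS3, a regulatory subunit, rose by 0.23 ± 0.09 and was lower under K. lactis scaling, and its call was lost with DESeq2 (adjusted p = 0.0983). Of 14 glycogen genes 12 rose (median 2.36). GAC1, which directs a phosphatase to glycogen synthase, went from 23.8 and 20.2 to 589 and 591 CPM (4.74 ± 0.12), and GLC3, the branching enzyme, from 52.8 and 72.4 to 726 and 729 CPM (3.55 ± 0.18). PGM1 fell (-2.09 ± 0.13) while PGM2, the other phosphoglucomutase, rose (2.20 ± 0.12). All 26 stationary-phase and hydrophilin genes rose (median 4.58), and their share of mRNA reads went from 0.123% and 0.117% to 2.79% and 2.86%. Of 29 heat shock proteins and chaperones 21 rose and 6 fell (median 2.00), and 17 were higher and 10 lower under K. lactis scaling. HSP30, a membrane protein of stressed cells (chromosome III, 156109 to 157107), rose from 5.42 and 1.74 to 3589 and 3762 CPM (9.91 ± 0.40). The chaperones bound to ribosomes, SSB1 and SSB2, fell (-4.47 ± 0.14 and -3.28 ± 0.12), from 3200 and 3267 to 161 and 131 CPM for SSB1. Of 22 antioxidant enzymes 16 rose (72.7%, against 41.1% of all mRNAs) and 3 fell (13.6%, against 36.9%). GPX1, a glutathione peroxidase (5.95 ± 0.18), and CTT1, the cytosolic catalase (3.77 ± 0.19), led the rises. The thioredoxin reductase TRR1 was among the falls (-1.41 ± 0.07). Scaled to K. lactis, 13 of the 22 were higher and 8 lower. STL1, the glycerol importer, rose from 0.265 and 0.348 to 445 and 457 CPM (10.44 ± 0.18), while GPP1, a phosphatase that makes glycerol, went from 749 and 756 to 28.1 and 24.2 CPM (-4.85 ± 0.43).

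All 10 vacuolar protease genes (median 1.52) and 31 of 33 autophagy genes (median 1.87) rose relative to mRNA. Under K. lactis scaling 6 protease genes were higher and 1 lower, and 24 autophagy genes were higher and 3 lower. PRB1, the vacuolar proteinase B, went from 483 and 462 to 3018 and 2996 CPM (2.67 ± 0.12). ATG39, a receptor for the degradation of nuclear envelope (5.29 ± 0.14), and ATG1, the kinase that starts autophagy (3.82 ± 0.11), rose most within the list. ATG5 and ATG27 fell by 0.59 and 0.48 on the log2 scale. Among 34 stress and starvation regulators 21 rose (61.8%, against 41.1% of all mRNAs) and 10 fell (29.4%, against 36.9%). Their median of 0.60 turned to -0.34 under K. lactis scaling. CRF1, a corepressor of ribosomal protein genes, went from 2.65 and 1.92 to 70.5 and 73.7 CPM (4.94 ± 0.18), and XBP1, a repressor induced by stress and starvation, from 18.5 and 22.3 to 342 and 322 CPM (4.04 ± 0.11). RAS1 (-3.43 ± 0.14) and TOD6, a repressor of ribosome biogenesis genes (-3.14 ± 0.12), fell.

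**Figure D4:**
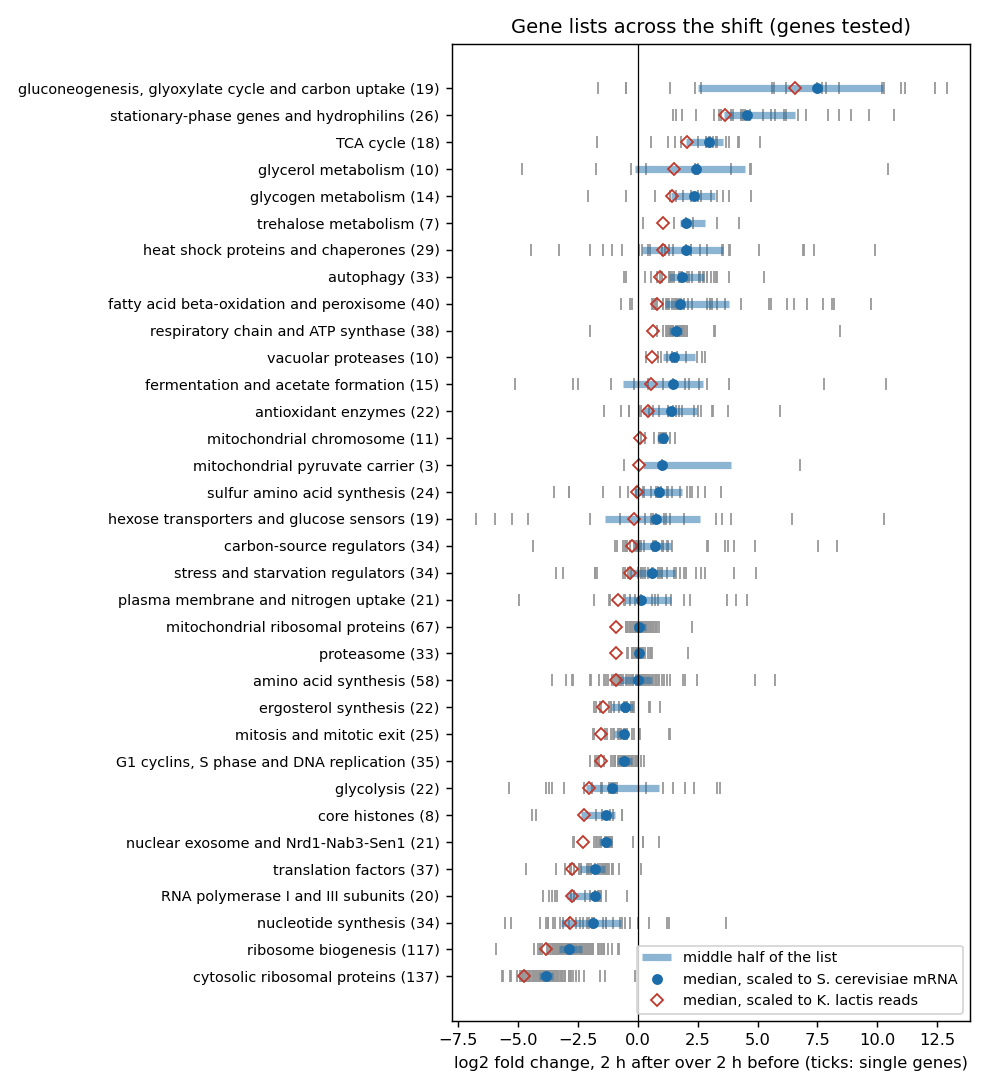
Log2 fold change (2 h after over 2 h before) of the tested genes of 34 lists, with a tick for each gene, a bar between the quartiles of the list, a filled circle for its median and an open diamond for its median under K. lactis scaling. Medians run from -3.83 for cytosolic ribosomal proteins to 7.50 for gluconeogenesis, and the diamonds of the hexose transporters, carbon-source regulators, stress regulators, sulfur amino acid genes, membrane and nitrogen uptake genes, mitochondrial ribosomal proteins, proteasome and amino acid synthesis lie on the other side of 0 from the circles.

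The machinery of ribosome production fell almost without exception. Of 137 cytosolic ribosomal protein genes 136 fell, by a median of -3.83, and all 117 ribosome biogenesis genes fell, by a median of -2.88. Ribosomal protein mRNAs made up 14.1% and 14.9% of mRNA reads before the shift and 1.13% and 1.01% after it. RPS3, a protein of the small subunit (chromosome XIV, 302680 to 303402), went from 1999 and 2155 to 57.4 and 45.3 CPM (-5.34 ± 0.11). RPS22A (-5.66 ± 0.13) and RPS26B (-5.63 ± 0.15) had the largest falls of the list, and both have a near-identical paralog. The exception was RPL15B, at 38.1 and 36.6 CPM before and 33.9 and 35.2 CPM after (-0.12 ± 0.13, adjusted p = 0.433), and it is also a duplicate of a more strongly expressed gene. Under K. lactis scaling RPL15B was called lower too (-1.06), as were all 137 genes. RPL41A and RPL41B, which encode the shortest ribosomal protein, fell by 2.24 and 1.37 on the log2 scale, and the latter was again among the smallest falls. ASC1, a ribosome-bound signalling protein, went from 1713 and 1745 to 44.5 and 38.2 CPM (-5.38 ± 0.12).

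Among ribosome biogenesis genes NSR1, the yeast nucleolin, went from 921 and 839 to 19.9 and 9.26 CPM (-5.92 ± 0.41). NOP1, the methyltransferase of box C/D particles, went from 964 and 961 to 65.4 and 54.4 CPM (-4.01 ± 0.14). FPR3 (-0.81 ± 0.08) and SPB4 (-0.79 ± 0.09) fell least. All 20 genes listed for RNA polymerases I and III fell (median -1.79), with RPA49 at -3.97 ± 0.16. RRN3, which is not itself a subunit, fell least (-0.44 ± 0.09). Of 37 translation factors 35 fell and none rose (median -1.79). YEF3, the fungal elongation factor 3, went from 8784 and 9205 to 404 and 305 CPM (-4.66 ± 0.19). The share of ribosomal protein mRNAs in the later libraries stood at 2.46% and 2.63% of mRNA reads at 24 h and 1.71% and 1.70% at 48 h, given without a test.

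Biosynthesis did not move as a block. Of 34 nucleotide synthesis genes 29 fell and 4 rose (median -1.89). URA7, the CTP synthase of growing cells, went from 436 and 411 to 12.5 and 9.09 CPM (-5.30 ± 0.22), while URA8, its paralog, went from 97.6 and 99.8 to 232 and 251 CPM (1.29 ± 0.09). IMD4, an IMP dehydrogenase, went from 621 and 616 to 13.5 and 13.2 CPM (-5.53 ± 0.13). URA10, a minor orotate phosphoribosyltransferase, rose by 3.70 ± 0.14. Amino acid synthesis stood close to all mRNAs, with 24 of 58 higher (41.4%, against 41.1% of all mRNAs) and 25 lower (43.1%, against 36.9%), and a median of 0.02, which was -0.93 under K. lactis scaling. GDH2, which breaks glutamate down, rose from 91.3 and 86.5 to 2642 and 2711 CPM (4.91 ± 0.12), and GDH3, a glutamate dehydrogenase of growth on ethanol, rose from 22.4 and 13.1 to 1017 and 882 CPM (5.71 ± 0.23). SER2 and SHM2, of serine and glycine metabolism, fell (-3.58 ± 0.17 and -3.02 ± 0.13). Of 24 sulfur amino acid genes 16 rose (66.7%, against 41.1% of all mRNAs) and 6 fell (25%, against 36.9%). Their median of 0.91 became -0.039 on the K. lactis scale. The regulator MET28 rose (3.48 ± 0.16), and SAM1, which makes S-adenosylmethionine, went from 827 and 814 to 67.9 and 76.5 CPM (-3.51 ± 0.10). Of 22 ergosterol genes 17 fell (77.3%, against 36.9% of all mRNAs) and 3 rose (13.6%, against 41.1%), with a median of -0.52. ERG25 was among the falls (-1.84 ± 0.11). 

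At the plasma membrane 10 of 21 genes rose (47.6%) and 9 fell (42.9%), near the 41.1% and 36.9% of all mRNAs, with a median of 0.12 that was -0.82 under K. lactis scaling. PMA1, the proton pump, went from 8481 and 8571 to 2531 and 2209 CPM (-1.85 ± 0.11), and its paralog PMA2 from 16.7 and 20.03 to 361 and 272 CPM (4.12 ± 0.16). PUT4, the proline permease, rose from 93.5 and 91.1 to 2216 and 2146 CPM (4.56 ± 0.14), and PTR2, the peptide transporter, fell from 856 and 854 to 30.5 and 24.2 CPM (-4.97 ± 0.11). 

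Cell cycle genes fell by smaller steps. Of 35 genes of G1, S phase and replication 29 fell (82.9%, against 36.9% of all mRNAs) and 1 rose (median -0.59). Of 25 mitotic genes 20 fell (80%) and 2 rose (median -0.58). POL30, the sliding clamp of replication, went from 124 and 120 to 31.0 and 30.9 CPM (-1.98 ± 0.11), and CLB2, a mitotic cyclin, from 114 and 114 to 34.6 and 29.5 CPM (-1.83 ± 0.12). SWI4, a transcription factor of the G1 to S transition, rose by 0.27 ± 0.08 and was lower under K. lactis scaling. CDC15 (1.35 ± 0.09) and DBF20 (1.29 ± 0.09), kinases of mitotic exit, rose. All 8 core histone genes fell (median -1.32) over a range of -0.64 to -4.41. HTA2, a gene for histone H2A, went from 326 and 333 to 17.1 and 17.7 CPM (-4.24 ± 0.14). HTB2, its divergent neighbour for histone H2B, went from 373 and 369 to 17.8 and 17.1 CPM (-4.41 ± 0.10).

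The proteasome list had a median near that of all mRNAs, at 0.03 (-0.91 under K. lactis scaling), and fewer calls in both directions. Of 33 genes 10 were higher (30.3%, against 41.1% of all mRNAs) and 6 lower (18.2%, against 36.9%). RPN4, the transcription factor of proteasome genes, stood apart at 2.09 ± 0.10. Of 21 genes of the nuclear exosome, its cofactors and the Nrd1-Nab3-Sen1 termination complex 18 fell and 3 rose (median -1.33). MTR4, the exosome's helicase, went from 447 and 421 to 73.9 and 64.5 CPM (-2.65 ± 0.13), and RRP6, its nuclear nuclease, from 188 and 166 to 87.7 and 79.2 CPM (-1.09 ± 0.09). NRD1, the RNA-binding terminator, rose by 0.23 ± 0.09 and was lower when scaled to K. lactis.

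In the table that adds structural RNAs and transposable elements 2582 of 6438 features (40.1%) were higher and 2296 (35.7%) lower, 75.8% in all. Small nucleolar RNAs mostly did not pass the test, 54 of 69, with 12 lower and 3 higher. Their median was -0.04 relative to mRNA and -0.99 under K. lactis scaling. Of 4 spliceosomal RNAs tested 2 were called, both higher. These were snR19 and LSR1, the yeast U1 and U2 RNAs, named after their values were seen. They rose relative to mRNA by 0.90 ± 0.12 and 0.81 ± 0.13, and stood at -0.04 and -0.13 under K. lactis scaling. The other 2, snR14 and snR6, did not pass the test (0.42 ± 0.31 and -0.29 ± 0.93). LSR1 was at 18320 and 18550 CPM before and 33080 and 31770 CPM after. The largest fall of a snoRNA was that of snR56, from 13.0 and 13.1 to 0.356 and 2.40 CPM (-3.20 ± 0.33). Transposable elements had 64 of 231 tested higher and 24 lower, beside 40.1% and 35.7% of all these features. Their median was 0.40, and -0.50 under K. lactis scaling. Their summed reads went from 0.517 and 0.505 to 0.465 and 0.463 per 100 mRNA reads. Most higher calls were of lone delta, sigma or tau repeats, many with few reads. YLRWdelta6 had 0 before and 29 after, and YMLCdelta1 0 and 7. Among whole Ty1 and Ty2 elements YPRWTy1-3 was the only one called higher (0.74 ± 0.14). The others called were lower, such as YMLWTy1-2 (-0.68 ± 0.13), YHRCTy1-1 (-0.65 ± 0.18) and YMRCTy1-3 (-0.40 ± 0.14). The whole Ty3 and Ty4 elements called, YGRWTy3-1 (0.79 ± 0.13), YILWTy3-1 (0.52 ± 0.12) and YJLWTy4-1 (0.66 ± 0.15), were higher. Reads that matched more than 1 place were not counted.

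Noncoding transcripts of published catalogues were counted in a table of their own. CUTs are unstable transcripts degraded by the nuclear exosome, and CUTHMM and CUT4x are further CUT annotations. SUTs are stable unannotated transcripts, XUTs are sensitive to the cytoplasmic nuclease Xrn1, and NUTs are left unterminated without Nrd1. Of 3903 tested, 1139 (29.2%) were higher and 637 (16.3%) lower, 45.5% in all, and for 71.0% the groups did not overlap. Higher calls made up 64.1% of all calls, but 50.5% when the table was scaled by its own TMM factors and 22.3% when scaled to K. lactis. Reads on these transcripts went from 13.7 and 14.1 to 19.6 and 19.5 per 100 mRNA reads.

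The 4 largest rises and the largest fall under the naming rule belonged to transcripts that overlap a coding gene on the same strand and share its reads. CUTHMM-CUT962 (chromosome XII, 874199 to 874642) overlaps FBP1 and had 3 reads in the earlier libraries and 24950 in the later ones. NUT-NUT1103 overlaps HXT5, and CUT4x-CUT3789 overlaps SFC1. The fall, of a transcript that overlaps RPS3 (chromosome XIV, 301281 to 303253), was -5.34 ± 0.15. Among the 3207 transcripts with no coding gene on their strand, fitted alone, 835 (26.0%) were higher and 432 (13.5%) lower. SUT-SUT220 (chromosome XI, 21232 to 22073, plus strand) went from 0.529 and 0.697 to 304 and 322 CPM (8.97 ± 0.34) and ends 161 bases before JEN1, on the same strand. SUT-SUT243 (chromosome XI, 630541 to 631016, plus strand) went from 0.132 and 0.522 to 62.2 and 78.9 CPM (7.76 ± 0.31) and ends 136 bases before PCK1. CUT-CUT413 (chromosome XVI, 304113 to 304314, plus strand) went from 469 and 439 to 18.4 and 13.7 CPM (-4.82 ± 0.15). Its distance to the nearest gene on its strand was not measured. Overlap was judged by the annotated start and end of each coding gene. Reads of mRNA ends that lie beyond them were therefore not kept apart from these transcripts.

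By catalogue, and without transcripts on a coding strand, SUTs had 282 of 737 higher (38.3%) and 128 lower (17.4%). XUTs had 481 of 1384 higher (34.8%) and 175 lower (12.6%), and CUTs 144 of 744 higher (19.4%) and 150 lower (20.2%). Of all 3207 such transcripts in the fit of the whole table, 26.4% were higher and 13.7% lower. The median was 0.00 for CUTs, 0.37 for SUTs and 0.39 for XUTs. All of these medians were below -0.5 under K. lactis scaling. A transcript can belong to several catalogues, so the groups share members. No test was made of the difference between catalogues.

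**Figure D5:**
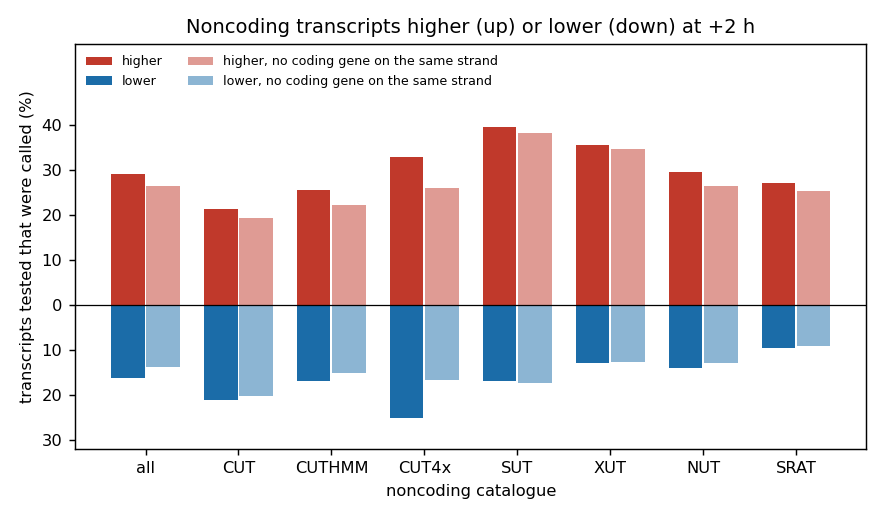
Share (percent) of the tested transcripts of each noncoding catalogue that were called higher (upward bars) or lower (downward bars) 2 h after the shift, with pale bars for the transcripts that overlap no coding gene on their own strand. SUTs and XUTs have more higher than lower calls and CUTs about equal numbers, on the mRNA scale. Scaled to K. lactis, lower calls outnumber higher ones in the table as a whole, 1615 to 463.

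Antisense transcripts were set beside the gene they face. In 1521 pairs a transcript covered at least 50% of a coding gene from the other strand. Both partners were higher in 262 pairs and both lower in 93, and the partners were called in opposite directions in 184. Taken singly, 433 of the transcripts (28.5%) and 788 of the genes (51.8%) in these pairs were higher, and 210 (13.8%) and 471 (31.0%) lower, and no relation between partners was tested. Over HXT3, a transcript of several catalogues (chromosome IV, 1162289 to 1168837, plus strand) went from 16.8 and 27.3 to 58.3 and 62.6 CPM (1.47 ± 0.15) while HXT3 fell. That transcript runs well beyond HXT3, and the position of its reads within it was not examined. Over GAC1 a transcript (chromosome XV, 667841 to 670633, plus strand) went from 13.4 and 13.8 to 3.03 and 2.74 CPM (-2.22 ± 0.26) while GAC1 rose. These examples were chosen after their values were seen. The names of the deposited tables carry a mark read here as counting on the same strand.

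The same interval was sampled in cells that lack Rrp6. RRP6 itself was at 3.76 and 3.18 CPM in the rrp6-deleted libraries before the shift and 9.24 and 6.18 CPM in those labelled +2 h, against 188 and 166, and 87.7 and 79.2 CPM in wild type. By the labels, the change differed between the genotypes for 3290 of 6146 mRNAs (53.5%) and 1087 of 3903 noncoding transcripts (27.9%). The wild-type change was the higher one for 1869 mRNAs (30.4%) and 712 noncoding transcripts (18.2%), and the lower one for 1421 (23.1%) and 375 (9.61%). With the rrp6-deleted libraries labelled +24 h in their place, 3358 mRNAs and 1060 noncoding transcripts differed. ENO2 fell by 5.37 on the log2 scale in wild type and by 0.63 in the rrp6-deleted libraries labelled +2 h (difference -4.74 ± 0.21, adjusted p = 4.05e-15). The difference was -2.79 with the rrp6-deleted libraries labelled +24 h in place. Because those libraries resembled other wild-type times than their labels give, no direction is drawn from this difference, and its relation to the genotype was not tested apart from the time.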

How the data were processed

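Total RNA of wild-type W303 cultures was sequenced after rRNA depletion, with unique molecular identifiers, per the labels' protocols. The authors deposited raw counts per feature in 3 tables, for mRNAs, for coding and structural features, and for noncoding transcripts. FastQC, MultiQC, UMI-tools, STAR, SAMtools, HTSeq and deepTools and the builds sacCer3 and R64 are named, per the submitters' processing notes, and their versions are not given in the sources used here. The deposited tables' names carry marks read here as counting on the same strand and without non-unique reads. Reads with more than 1 alignment are listed apart in the tables (40.3% to 48.6% of reads), without a feature 8.60% to 12.0%, and ambiguous 0.817% to 1.33%. These rows and those of K. lactis stayed out of library sizes. Of 6600 mRNA rows, 5917 locus tags matched the RefSeq gene table. Counting intervals and floors cover counting error only.

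The counts were tested with edgeR 4.0.16 in R 4.3.3 (quasi-likelihood F-test, TMM factors of the mRNA table, filterByExpr). The fit, 1 for each table, held 20 libraries made with the same kit, wild type and rrp6-deleted. Benjamini-Hochberg adjustment was over all features at 0.05. Fold changes carry edgeR's default prior count. A prior count of 2 was used only for the log2 levels behind the correlations and the check of overlap. The SE is the log2 fold change divided by the root of F. On simulated counts for 6146 mRNAs, 88% of genes changed by 1 log2 unit and 97% of those changed by 2 were recovered. False calls were 7.96%, above the threshold of 0.05. Only 100 genes changed by 1 unit and 100 by 2, evenly up and down, where 78.0% were called in the data. The simulation therefore cannot show the error rate or the scaling under so broad a change. RPKM here is CPM per kilobase.

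The members and gene lists were chosen with earlier results of these data known. Named are the 15 largest rises and falls with at least 50 counts in every library of the higher group, any member of the core lists and enzyme pairs, and 2 rises and 2 falls of other lists. For noncoding and structural features the 5 largest of each direction are named. Alternatives were K. lactis scaling, DESeq2 1.42.0, its size factors, no filter, other sets of libraries, each table's own TMM factors, a block for the title number and each library left out. The titles give each replicate of a genotype a number that the labels do not explain. Deviations of same-numbered samples from their group means correlated at 0.027 between -2 h and +2 h, so the numbers were not used as pairs. The values of 1 gene are not reported here.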

Additional observations from a re-analysis of the deposited data

Results flagged for a closer look

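By the time labels, the change over the shift differed between wild type and rrp6-deleted libraries for 3290 mRNAs and 1087 noncoding transcripts. The test was the interaction term of edgeR's quasi-likelihood test. The rrp6-deleted libraries labelled +2 h correlated more closely with wild type at 24 h (0.971) than at 2 h (0.929), so no direction is drawn from these values. Among the named differences, wild-type change minus that of the rrp6-deleted libraries by their time labels, were 6.44 for CSM4, 5.58 for STL1, 5.57 for DPA10, 5.22 for MAL12 and 4.84 for DSF1 on the log2 scale. On the other side they were -6.27 for HO, -6.15 for NCA3, -5.80 for NFG1, -4.83 for SPS4 and -4.74 for ENO2. With the rrp6-deleted libraries labelled +24 h in place of those labelled +2 h, DSF1 no longer passed (adjusted p = 0.347), and the other 9 did. ENO2 was then at -2.79, MAL12 at 2.52, HO at -4.01, SPS4 at -2.93 and NCA3 at -1.52 (adjusted p = 0.0476). CSM4 had no read in the earlier wild-type libraries and NFG1 none in the later ones, so their values depend on edgeR's default prior count and have no rank.

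Reads of 20S RNA, the genome of a yeast virus-like element that no comparison used, were present in all 4 libraries. There were 1.98 and 2.30 for each 100 mRNA reads before the shift and 4.79 and 4.76 after it.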

How the results depend on the processing

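Of 195 recomputed counts of calls, 186 stayed within 1.5 times of the value given above. The other 9 all belonged to K. lactis scaling, which gave 1030 mRNAs higher and 3965 lower, 1052 and 4074 for coding and structural features, and 463 and 1615 for noncoding transcripts. For the difference between genotypes it gave 664 mRNAs lower, and 1079 noncoding transcripts higher and 222 lower. The same scaling turned the medians of hexose transporters (-0.14), carbon-source regulators (-0.25), stress regulators (-0.34), sulfur amino acid synthesis (-0.039) and plasma membrane and nitrogen uptake (-0.82), and 3 that had been near 0: mitochondrial ribosomal proteins (-0.90), the proteasome (-0.91) and amino acid synthesis (-0.93). Across all alternatives 45 of 374 list medians moved by more than their genes' median SE without being counted as turned. K. lactis scaling turned EMI2 to -0.62, NDE1 to -0.16, TPS3 to -0.72, SWI4 to -0.68 and NRD1 to -0.71. It ended the calls of HXK1, ACS2 and ATP20, whose changes kept their sign. MIG1 (-0.81) and RPL15B (-1.06), not called on the mRNA scale, were called lower with it. The cause was not tested. Leaving out 1 library at a time gave 4477 to 4560 mRNAs, 4516 to 4616 coding and structural features and 1471 to 1574 noncoding transcripts. Without replicate 1 of the earlier group EMI2, TPS3, ATG5, SWI4 and NRD1 no longer passed (adjusted p from 0.0949 to 0.197), and without replicate 2 of the later group EMI2, DAL7, TPS3, SWI4 and NRD1 did not (0.0532 to 0.151). EMI2 (0.0672) and TPS3 (0.0983) were lost with DESeq2, and TPS3 (0.0574) and NRD1 (0.0584) with its size factors.

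With a replicate block for the title number the fit called 4777 mRNAs, 4868 coding and structural features and 1782 noncoding transcripts. Deviations of same-numbered samples correlated at 0.027, and the labels do not say what the number stands for. The block changed no call of a named feature. With 2 libraries a group, each value rests on few samples.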
